A study of Mus musculus with 6 samples.

Results

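The data described here are the RNA levels of 10 secreted growth factor genes in hepatic CD11c+ cells: the TGF-β genes Tgfb1, Tgfb2 and Tgfb3, the PDGF genes Pdgfa, Pdgfb and Pdgfc, Igf1, Vegfa, and the EGF family genes Hbegf and Areg. They were taken by gene symbol from a table of 31426 genes, and all 10 were found, each in 1 row. Their values played no part in that rule. The study asked how loss of the autophagy gene Atg5 in CD11c+ cells alters fatty liver disease in mice on a high-fat diet (HFD), and the RNA-seq libraries compare such cells between genotypes.

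The Atg5 CD11cKO group holds 3 libraries, numbered 25, 26 and 27, from C57BL/6 mice (C57BL/6J in the methods) with loxP-flanked Atg5 on both chromosomes and a homozygous Cre transgene under the CD11c (Itgax) promoter, which is active in any cell that uses this promoter, macrophages and DCs included. The WT group holds 3 libraries, numbered 21, 22 and 23, from C57BL/6 mice that, per the study, were littermates with the floxed gene. The mice of both groups were males, 4 to 8 weeks old per the labels, and ate HFD for 14 weeks. The methods name magnetic CD11c beads for the isolation, whereas a figure legend and the reporting summary speak of sorted cells. The RNA input was 10 ng per library. The sources do not say which mouse or mice gave each library, so the p-values measure the spread between libraries, which may be technical.

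These factors are made by macrophages and other cells of the liver and act on their neighbours. TGF-β is released as a latent complex, and once freed it is known to drive hepatic stellate cells to lay down collagen, while PDGF makes these cells divide. IGF-1 and VEGF-A act on growth, metabolism and blood vessels, and HB-EGF and amphiregulin, cut from the cell surface by proteases, activate the EGF receptor in wound repair.

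The library labelled WT 23 stood apart from the other WT libraries. Atg5 was at 21.3, 21.0 and 20.7 CPM (counts scaled to library size, with TMM factors) in Atg5 CD11cKO 25, 26 and 27, against 53.9 and 49.7 CPM in WT 21 and WT 22, and it was at 22.0 CPM in the library labelled WT 23. That library was also nearer, on the log2 scale, to the Atg5 CD11cKO mean than to the mean of WT 21 and WT 22 for 9 of the 10 growth factor genes, while over all genes tested this held for 73.7%. Whether its label is right could not be settled from the sources used here, and every value over the 6 libraries as labelled rests on that label. Each of the 10 genes is therefore given over the 6 libraries and again without the library labelled WT 23 (its values were known when this was chosen). Calls and tests of other genes are from the comparison without it unless the 6 libraries are named. The totals were 31064570 to 34034675 estimated counts per library. Itgax, which encodes CD11c, was at 463 to 491 CPM in Atg5 CD11cKO libraries and at 431 to 471 CPM in the 3 WT libraries. Itgax and 7 other genes of the fraction, among them Ptprc (CD45) and Cd74, held 5.37% to 5.55% of counts in Atg5 CD11cKO libraries and 4.95% to 5.34% in the 3 WT libraries.

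The share of counts taken by cell type markers also differed between the libraries. Markers of lipid-associated macrophages (8 genes, such as Trem2) held 0.590% to 0.603% of counts in Atg5 CD11cKO libraries, against 0.135% and 0.138% in WT 21 and WT 22 and 0.597% in the library labelled WT 23. Mature DC markers (6 genes) held 0.146% to 0.147% in Atg5 CD11cKO libraries, against 0.0698% and 0.0665% in WT 21 and WT 22. Kupffer cell markers (8 genes) held 0.0957% to 0.0964% in Atg5 CD11cKO libraries, against 0.194% and 0.195% in WT 21 and WT 22. Hepatocyte markers (16 genes) held 0.104% to 0.105% in Atg5 CD11cKO libraries, against 0.248% and 0.250% in WT 21 and WT 22, and pancreatic acinar cell markers (12 genes) held 0.0351% to 0.0369% in Atg5 CD11cKO libraries, against 1.64% and 1.63% in WT 21 and WT 22. Plasmacytoid DC markers held 0.0780% to 0.0791% in Atg5 CD11cKO libraries, against 0.193% in both WT 21 and WT 22, and T and NK cell markers held 0.0357% to 0.0362% in Atg5 CD11cKO libraries, against 0.0896% and 0.0871% in WT 21 and WT 22. For mature DC, Kupffer cell, hepatocyte and acinar markers the library labelled WT 23 had 0.146%, 0.0948%, 0.102% and 0.0341%. In a bulk fraction of this kind, fewer cells of a type, less RNA per cell and carry-over of outside RNA cannot be told apart. The part of these cell types in the growth factor results was not tested.

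Without the library labelled WT 23, 5 of the 10 growth factor genes rose in Atg5 CD11cKO cells (Tgfb1, Pdgfa, Pdgfb, Igf1 and Vegfa), 2 fell (Tgfb3 and Hbegf) and 3 did not pass the test (Tgfb2, Pdgfc and Areg), at an adjusted p under 0.05 from edgeR's quasi-likelihood test. Over all 18241 genes tested there, 15.9% were higher and 15.1% were lower. The median log2 fold change, Atg5 CD11cKO over WT, was 0.31 over the 10 genes and -0.01 over all genes tested. All 10 passed the filter on low counts in both comparisons.

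Over the 6 libraries as labelled, none of the 10 passed (edgeR), nor did any of the 17499 genes tested, so the share called was 0% in each direction. An unadjusted p under 0.05 was reached by 3 of the 10 genes, Tgfb1, Tgfb3 and Pdgfb, and by 2515 genes of all. DESeq2 called 1 of the 10, Pdgfb, and 37 genes higher and 305 lower over all genes, while limma-voom called none in either direction. For 3 genes, Tgfb1, Pdgfa and Pdgfb, every Atg5 CD11cKO library lay above all 3 WT libraries, as did 9.59% of all genes, and no member lay wholly below, as did 8.72%. When the library labelled WT 23 was left out, the groups did not overlap for the same 7 genes that passed, 5 with Atg5 CD11cKO higher and 2 with it lower. Over all genes, 27.0% lay wholly above and 28.0% wholly below there.

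**Figure D1:**
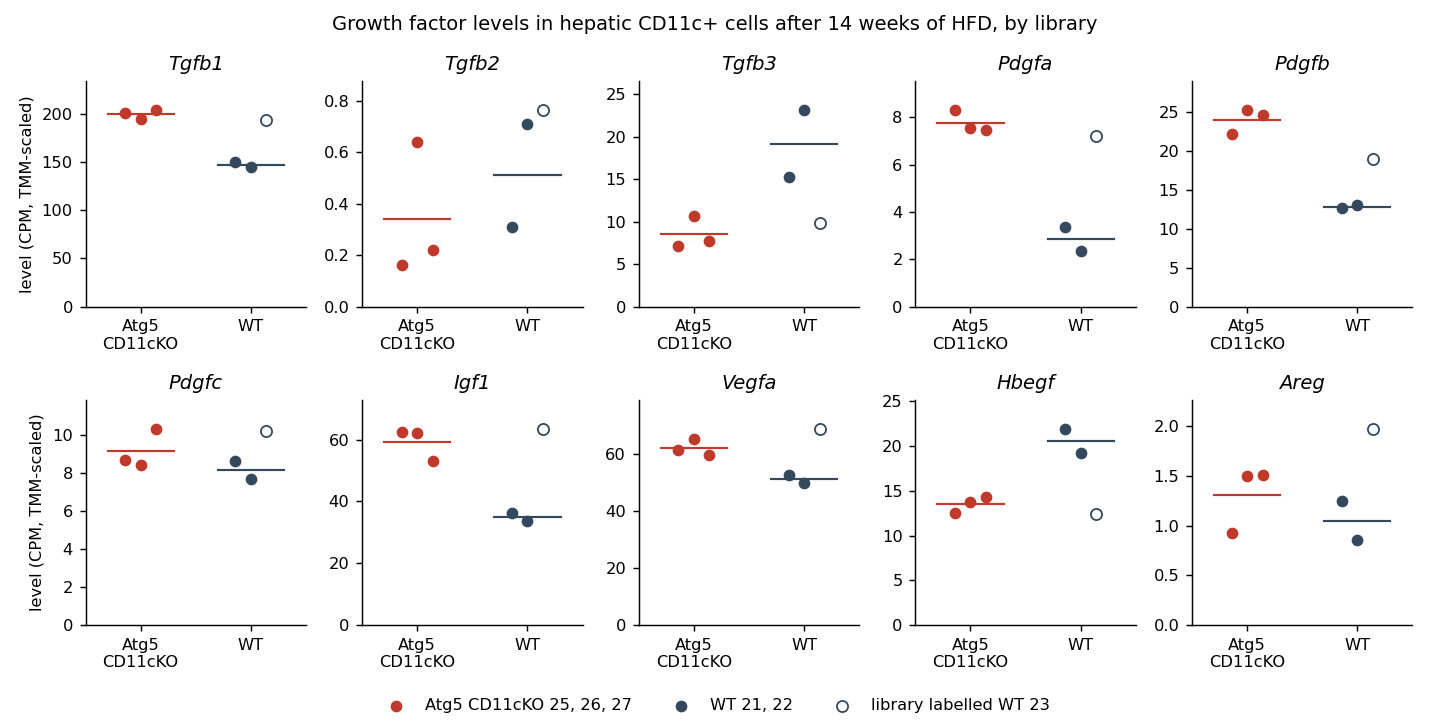
Level of each growth factor gene in each library (y axis, CPM scaled by TMM factors, linear and from 0), with Atg5 CD11cKO libraries at the left and WT libraries at the right of each panel. Lines mark the mean of the 3 Atg5 CD11cKO libraries and of WT 21 and WT 22, and the open circle is the library labelled WT 23, which lies nearer to the Atg5 CD11cKO libraries for 9 of the 10 genes.

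The sequence just before the start of transcription is shown for 3 of the genes: Tgfb1 and Vegfa, the most abundant per length and both higher in Atg5 CD11cKO cells without the library labelled WT 23, and Areg, which was scarce and did not pass. Capitals mark matches to the GC box (GGGCGG, bound by SP family factors) and the TATA box (TATAAA), searched on both strands, and each stretch is the 250 bases before the RefSeq start on GRCm38.p6, the patched form of mm10, with no annotated exon in it. Tgfb1 is at chr7:25686752-25687001 on the plus strand, Vegfa at chr17:46032378-46032627 on the minus strand, and Areg at chr5:91139349-91139598 on the plus strand.
Tgfb1: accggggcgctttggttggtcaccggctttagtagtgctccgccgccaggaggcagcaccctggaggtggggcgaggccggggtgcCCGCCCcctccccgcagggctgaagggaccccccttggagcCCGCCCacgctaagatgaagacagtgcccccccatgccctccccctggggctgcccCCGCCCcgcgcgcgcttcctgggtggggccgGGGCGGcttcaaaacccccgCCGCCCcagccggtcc
Vegfa: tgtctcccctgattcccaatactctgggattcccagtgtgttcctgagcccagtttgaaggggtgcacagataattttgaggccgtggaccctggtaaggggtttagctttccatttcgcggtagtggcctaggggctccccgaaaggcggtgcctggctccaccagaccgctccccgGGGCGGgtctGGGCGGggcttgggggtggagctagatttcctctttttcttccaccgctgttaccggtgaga
Areg: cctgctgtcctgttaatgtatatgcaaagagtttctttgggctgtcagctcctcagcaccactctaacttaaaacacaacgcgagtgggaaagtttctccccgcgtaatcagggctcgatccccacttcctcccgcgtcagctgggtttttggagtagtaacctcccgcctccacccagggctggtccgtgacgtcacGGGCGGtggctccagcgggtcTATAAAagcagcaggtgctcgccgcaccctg

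The Tgfb1 stretch held 5 GC boxes and no TATA box, and 75.2% of its bases were G or C, against a median of 52% over the 27025 promoters of the RefSeq table. Vegfa held 2 GC boxes and no TATA box. Areg held 1 GC box and a TATA box that begins 31 bases before the start. Of the 7 growth factor genes matched in that table, 4 held a GC box, as did 32.9% of all promoters, and 2 held a TATA box, as did 13% of all. The E-box CACGTG, the AP-1 site TGANTCA and the core of the hypoxia element ACGTG, which overlaps the E-box, were each found in 1 of the 7, against 6.05%, 6.87% and 16.6% of all promoters. The windows of Igf1, Tgfb2 and Pdgfa hold 250, 167 and 86 bases of annotated exons. The AP-1 match was in the Igf1 window, and those of the E-box and hypoxia core were in the Tgfb2 window. All matches describe the letters of the window only. Tgfb3, Pdgfb and Hbegf have no entry in the table.

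Among the 10 genes, levels per length of merged exons (CPM per kb) ran over a wide range. Tgfb1 was the highest with a mean of 35.9 CPM per kb over the 6 libraries, at percentile 90.6 of all genes tested. Vegfa followed with 13.9 CPM per kb and Igf1 with 5.23 CPM per kb. Then came Pdgfb with 4.66, Tgfb3 with 3.63, Hbegf with 3.25, Pdgfa with 1.94, Pdgfc with 1.77, Areg with 1.10 and Tgfb2 with 0.081 CPM per kb. The ranges over the 6 libraries did not overlap between Tgfb1 and Vegfa, Vegfa and Igf1, or Areg and Tgfb2, while all other neighbours in this order overlapped.

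Tgfb1, the main TGF-β of immune cells, was the most abundant of the growth factor genes. Without the library labelled WT 23 it rose in Atg5 CD11cKO cells, whereas Tgfb3 fell. Tgfb1 lies on chromosome 7 of mm10 from 25687002 to 25705077 (GENCODE vM21). It was at 200.5, 195 and 203 CPM in Atg5 CD11cKO 25, 26 and 27, against 149 and 144.5 CPM in WT 21 and WT 22 and 193 CPM in the library labelled WT 23. The groups did not overlap with or without that library, and it was the highest of the WT libraries. The mean was 199.5 ± 4.34 CPM (SD, n = 3) in Atg5 CD11cKO cells and 147 ± 3.46 CPM (SD, n = 2) in WT 21 and WT 22, a 1.36-fold difference (log2 fold change 0.45, standard error 0.05, edgeR adjusted p = 2.1e-05). Over all 6 libraries the log2 fold change was 0.30 (standard error 0.12, edgeR adjusted p = 0.346).

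Tgfb3, a TGF-β isoform known from wound healing and palate closure, lies on chromosome 12 from 86056745 to 86079041. It was at 7.08, 10.7 and 7.76 CPM in Atg5 CD11cKO 25, 26 and 27, against 15.3 and 23.1 CPM in WT 21 and WT 22 and 9.79 CPM in the library labelled WT 23, which fell within the Atg5 CD11cKO range. Both groups varied more than counting allows, with an SD 3.68 times the counting SD in Atg5 CD11cKO libraries and 7.38 times in WT 21 and WT 22. Without the library labelled WT 23 the level was 0.444 times that of WT (log2 fold change -1.17, standard error 0.22, edgeR adjusted p = 0.00164), and over all 6 libraries the log2 fold change was -0.92 (standard error 0.32, edgeR adjusted p = 0.338). Its exons overlap 2 genes on the other strand by 420 bases, none of which exceeded 10 counts in any library.

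Tgfb2, an isoform of epithelium and mesenchyme, lies on chromosome 1 from 186622792 to 186705989 and was near the limit of detection. It had 5, 21 and 7 counts in Atg5 CD11cKO 25, 26 and 27, against 10 and 24 counts in WT 21 and WT 22 and 24 counts in the library labelled WT 23. The groups overlapped, and a difference was not detectable at this depth (log2 fold change -0.57, standard error 0.79, edgeR adjusted p = 0.638 without the library labelled WT 23, and -0.79, adjusted p = 0.552, over the 6 libraries).

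The opposite directions of Tgfb1 and Tgfb3 went with a different make-up of TGF-β RNA. Per length, Tgfb3 made up 4.99%, 7.52% and 5.38% of the TGF-β transcripts in Atg5 CD11cKO 25, 26 and 27, against 13.2% and 19.2% in WT 21 and WT 22 and 7.0% in the library labelled WT 23. Tgfb1 took 92.2% to 94.9% in Atg5 CD11cKO cells, against 86.6% and 80.5% in WT 21 and WT 22. These shares rest on the same counts as the tests above and were not tested again.

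**Figure D2:**
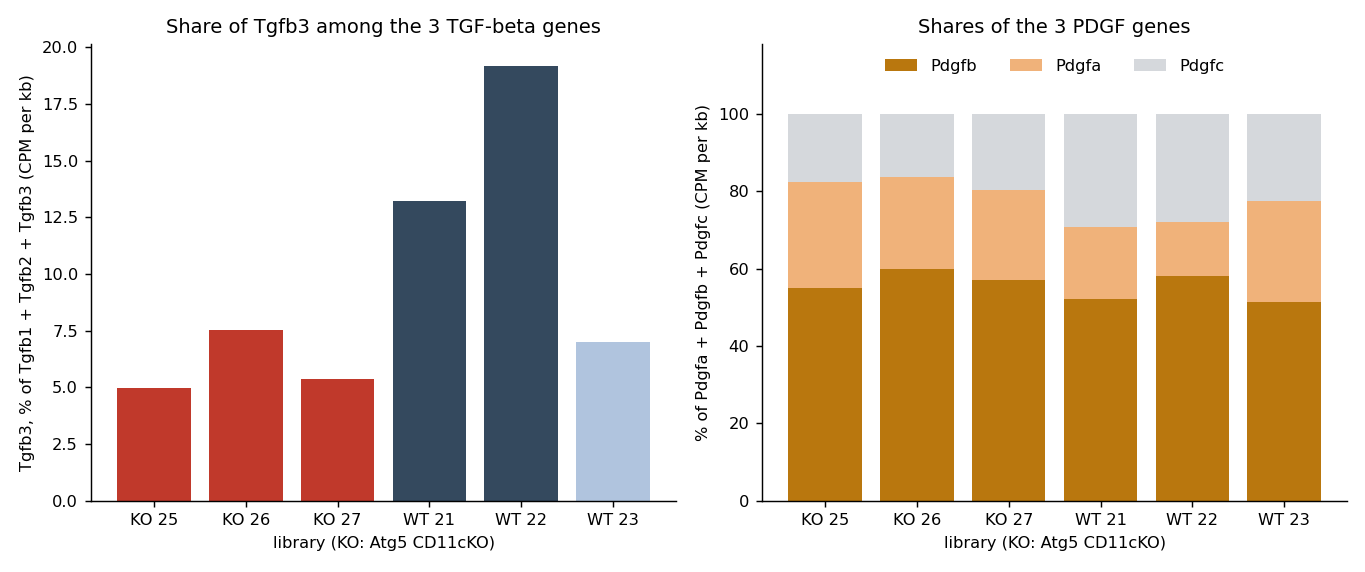
Left, share of Tgfb3 in the summed CPM per kb of Tgfb1, Tgfb2 and Tgfb3, and right, shares of Pdgfb, Pdgfa and Pdgfc in their sum, in percent, with 1 bar per library (KO, Atg5 CD11cKO). In the left panel Atg5 CD11cKO bars are red, WT 21 and WT 22 dark and the library labelled WT 23 pale. Tgfb3 takes 4.99% to 7.52% in Atg5 CD11cKO libraries and 13.2% and 19.2% in WT 21 and WT 22.

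The genes that hold TGF-β latent or free it moved mostly upwards without the library labelled WT 23. Of 16 tested, 9 were higher and 2 were lower, with a median log2 fold change of 0.92 (0.36 over the 6 libraries). Itgb5, the β5 chain of an αv integrin that can activate TGF-β, was at 425, 411 and 427 CPM in Atg5 CD11cKO 25, 26 and 27, against 93.7 and 97.8 CPM in WT 21 and WT 22 and 385 CPM in the library labelled WT 23 (log2 fold change 2.14, edgeR adjusted p = 1.18e-11, and 1.13, adjusted p = 0.352, over the 6 libraries). Nrros and Mmp14 were next by adjusted p. Nrros, which tethers latent TGF-β1 on myeloid cells, had a log2 fold change of 0.64 (edgeR adjusted p = 1.51e-07). Mmp14, a membrane metalloproteinase, had one of 1.57 (edgeR adjusted p = 4.58e-07). The genes that fell were Thbs1 (log2 fold change -0.76), which encodes thrombospondin-1, known to activate TGF-β, and Mmp9 (-0.84), which encodes a gelatinase. In this comparison 15.9% of all genes tested were higher and 15.1% were lower.

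Of 16 TGF-β receptor and SMAD genes, 8 were higher and 1 was lower in the same comparison, with a median log2 fold change of 0.25 (0.14 over the 6 libraries). The shares over all genes tested were 15.9% higher and 15.1% lower. Tgfbr1, the type I receptor, was at 203, 170.2 and 187 CPM in Atg5 CD11cKO 25, 26 and 27, against 66.2 and 63.4 CPM in WT 21 and WT 22 and 208 CPM in the library labelled WT 23. It was thus higher in every Atg5 CD11cKO library than in WT 21 and WT 22, with a log2 fold change of 1.53 (edgeR adjusted p = 3.24e-08) and of 0.73 over the 6 libraries (edgeR adjusted p = 0.424). Eng, which encodes the co-receptor endoglin, rose with a log2 fold change of 1.10, Smad7, an inhibitor that TGF-β itself induces, with 0.68, and the type II receptor gene Tgfbr2 with 0.27. The genes of SMAD co-repressors were divided, since Skil was lower (-0.45) while Ski (0.65) and Tgif1 (0.39) were higher. The signal carriers Smad2, Smad3 and Smad4 did not pass (log2 fold changes 0.10, -0.21 and 0.05).

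Genes known to respond to TGF-β mostly leaned upwards without the library labelled WT 23, with 12 of 14 log2 fold changes positive. Of these 14, 6 were called higher and 2 lower, with a median log2 fold change of 0.88 (0.63 over the 6 libraries). Over all 18241 genes tested there, 8926 log2 fold changes were positive, 15.9% of genes were called higher and 15.1% lower. Fn1, which encodes fibronectin, had a log2 fold change of 2.08 (edgeR adjusted p = 1.61e-07, and 0.98 over the 6 libraries) and Tgfbi, which encodes a matrix protein, one of 0.42 (5.88e-06), while the integrin gene Itgae, also a marker of type 1 conventional DCs, had one of -1.29 (8.52e-08). The 6 markers of these DCs, a list without Itgae, were all lower and held 0.274% to 0.283% of counts in Atg5 CD11cKO libraries, against 0.380% and 0.384% in WT 21 and WT 22. Pmepa1, which encodes a feedback inhibitor of the pathway, was lower at -0.60, a call lost when WT 21 was also left out (-0.45, edgeR adjusted p = 0.0504). Among the higher genes, Col3a1, Col1a1 and Acta2, known from stellate cells and fibroblasts, stayed at or below 7.44 CPM in every library, and Acta2 did not pass when WT 22 was also left out (edgeR adjusted p = 0.0599). The 10 stellate cell markers held 0.00505% to 0.00546% of counts in Atg5 CD11cKO libraries, against 0.00281% and 0.0031% in WT 21 and WT 22 and 0.00463% in the library labelled WT 23. Their part in the matrix genes was not tested.

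The products of Pdgfa and Pdgfb pair as PDGF chains and act on mesenchymal cells. Both genes rose in Atg5 CD11cKO cells without the library labelled WT 23, and Pdgfa rose most of the 10 genes by fold. Pdgfa lies on chromosome 5 from 138976014 to 138997370. It was at 8.29, 7.54 and 7.48 CPM in Atg5 CD11cKO 25, 26 and 27, against 3.36 and 2.36 CPM in WT 21 and WT 22 and 7.22 CPM in the library labelled WT 23. That library lay just under the lowest Atg5 CD11cKO library, so the groups still did not overlap. The mean was 7.77 ± 0.454 CPM (SD, n = 3) in Atg5 CD11cKO cells and 2.86 ± 0.701 CPM (SD, n = 2) in WT 21 and WT 22, a 2.73-fold difference (log2 fold change 1.45, standard error 0.24, edgeR adjusted p = 0.000769). Over all 6 libraries the log2 fold change was 0.85 (standard error 0.40, edgeR adjusted p = 0.352). Its exons overlap those of 6330403L08Rik on the other strand by 813 bases. No source used here gives the use of strand in the counting, and that gene reached at most 44 counts in a library.

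Pdgfb lies on chromosome 15 from 79995874 to 80014977. It was at 22.1, 25.2 and 24.5 CPM in Atg5 CD11cKO 25, 26 and 27, against 12.6 and 13.1 CPM in WT 21 and WT 22 and 19.0 CPM in the library labelled WT 23. All Atg5 CD11cKO libraries were above all WT libraries, and the library labelled WT 23 was between the groups. Without that library the difference was 1.87-fold (log2 fold change 0.90, standard error 0.13, edgeR adjusted p = 0.000242). Over all 6 libraries the log2 fold change was 0.69 (standard error 0.18), with an adjusted p of 0.338 from edgeR and 0.0398 from DESeq2. Platelets are another source of PDGF. The 12 platelet and megakaryocyte markers held 0.00689% to 0.00791% of counts in Atg5 CD11cKO libraries, against 0.00605% in both WT 21 and WT 22, and 1 of 6 tested was called, as higher.

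Pdgfc, whose product is secreted in a latent form and freed by proteases, lies on chromosome 3 from 81036416 to 81214040. It was at 8.71, 8.43 and 10.3 CPM in Atg5 CD11cKO 25, 26 and 27, against 8.64 and 7.68 CPM in WT 21 and WT 22 and 10.2 CPM in the library labelled WT 23. The groups overlapped and the gene did not pass (log2 fold change 0.17, standard error 0.18, edgeR adjusted p = 0.527 without the library labelled WT 23, and 0.05, adjusted p = 0.906, over the 6 libraries). Per length, Pdgfc made up 16.4% to 19.7% of the PDGF transcripts in Atg5 CD11cKO cells, against 29.3% and 27.9% in WT 21 and WT 22 and 22.7% in the library labelled WT 23. Pdgfa took 23.2% to 27.5% in Atg5 CD11cKO cells, against 18.6% and 14.0% in WT 21 and WT 22.

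The receptors of PDGF were scarce in this fraction. Pdgfra was at 0.0611 to 0.597 CPM in Atg5 CD11cKO libraries and at 0.0591 to 0.0954 CPM in the 3 WT libraries, and it was not tested. Pdgfrb was at 0.833, 0.397 and 1.35 CPM in Atg5 CD11cKO 25, 26 and 27, against 0.155 and 0.236 CPM in WT 21 and WT 22 and 1.08 CPM in the library labelled WT 23, and it missed the threshold (edgeR adjusted p = 0.0501 without that library, log2 fold change 2.11, and 0.81 over the 6 libraries). Of the 7 genes tested among the PDGF receptors, the fourth ligand and the proteases that process PDGF, 1 was higher and 1 was lower, with a median log2 fold change of -0.12 (-0.17 over the 6 libraries). These counts are near the shares over all genes (15.9% and 15.1%). Plau, the gene of urokinase, was higher (log2 fold change 1.91) and St14, the gene of matriptase, was lower (-0.77). The call of Plau was lost when WT 21, WT 22, Atg5 CD11cKO 25 or Atg5 CD11cKO 26 was also left out (edgeR adjusted p = 0.0578, 0.0527, 0.0639 and 0.0646), and a filter of 1 CPM in 3 libraries removed the gene.

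**Figure D3:**
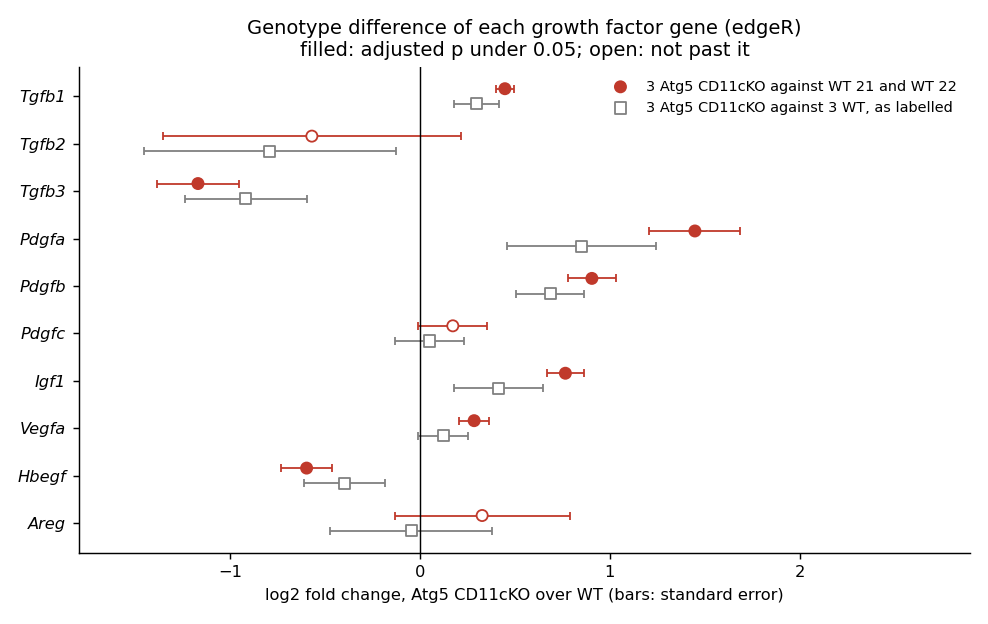
Log2 fold change, Atg5 CD11cKO over WT, of each growth factor gene (x axis) with its standard error from edgeR as bars, for the 3 Atg5 CD11cKO libraries against WT 21 and WT 22 (circles) and against the 3 WT libraries as labelled (squares). Filled symbols have an adjusted p under 0.05, which 7 circles and no square reach.

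Igf1, the gene of insulin-like growth factor 1, which macrophages make in tissue repair and hepatocytes release into blood, rose in Atg5 CD11cKO cells without the library labelled WT 23. It lies on chromosome 10 from 87858265 to 87937042. It was at 62.4, 62.0 and 53.1 CPM in Atg5 CD11cKO 25, 26 and 27, against 36.2 and 33.8 CPM in WT 21 and WT 22, whereas the library labelled WT 23 had 63.5 CPM, above every Atg5 CD11cKO library. The difference without it was 1.70-fold (log2 fold change 0.77, standard error 0.10, edgeR adjusted p = 9.88e-05), and over all 6 libraries the log2 fold change was 0.41 (standard error 0.24, edgeR adjusted p = 0.407). Hepatocyte markers, given above, were lower for 15 of 16 genes in Atg5 CD11cKO cells in the same comparison. The source of the Igf1 RNA was not tested.

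The other genes of the IGF axis were divided, with 4 of 18 higher and 6 lower and a median log2 fold change of -0.19 (-0.06 over the 6 libraries). Of all genes tested, 15.9% were higher and 15.1% lower. The lower genes included binding proteins known from hepatocytes. Igfbp2 was at 1.44, 1.92 and 1.35 CPM in Atg5 CD11cKO 25, 26 and 27, against 20.9 and 26.5 CPM in WT 21 and WT 22 and 2.23 CPM in the library labelled WT 23 (log2 fold change -3.91, edgeR adjusted p = 6.23e-08, and -3.39 over the 6 libraries). Igfbp1 had 0 counts in the Atg5 CD11cKO libraries and in the library labelled WT 23, against 968 counts in WT 21 and WT 22 together, and was at least 462-fold lower in Atg5 CD11cKO cells if the zero is read as at most 3 counts in the group as a whole, a bound that covers counting error alone. The hepatocyte markers were lower too, and their part in the fall of these 2 genes was not tested. Igfbp7, which encodes a binding protein of vessels and stroma, was higher with a log2 fold change of 1.10 (edgeR adjusted p = 4.07e-06). The receptor gene Igf1r was at 7.39 to 9.03 CPM in Atg5 CD11cKO libraries, against 9.44 and 7.51 CPM in WT 21 and WT 22, and did not pass (log2 fold change -0.02, standard error 0.19).

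Vegfa, which encodes the main growth factor of blood vessels, showed the smallest change among the genes that passed. It lies on chromosome 17 from 46016993 to 46032369. It was at 61.4, 65.5 and 59.7 CPM in Atg5 CD11cKO 25, 26 and 27, against 52.7 and 49.9 CPM in WT 21 and WT 22, and the library labelled WT 23 had 69.0 CPM, the highest of all 6. The difference without that library was 1.22-fold (log2 fold change 0.28, standard error 0.08, edgeR adjusted p = 0.0167). It did not pass when WT 22 was left out as well (log2 fold change 0.25, edgeR adjusted p = 0.0813), nor when Atg5 CD11cKO 26 was (0.25, edgeR adjusted p = 0.0654). Over all 6 libraries the log2 fold change was 0.12 (standard error 0.13, edgeR adjusted p = 0.646).

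Of 9 other VEGF ligand and receptor genes tested without the library labelled WT 23, 4 were higher and none was lower, with a median log2 fold change of 0.21 (0.20 over the 6 libraries), and all 4 encode receptors or co-receptors. The shares over all genes tested there were 15.9% higher and 15.1% lower. Kdr, the gene of VEGF receptor 2, was at 57.4, 43.7 and 45.6 CPM in Atg5 CD11cKO 25, 26 and 27, against 29.3 and 26.5 CPM in WT 21 and WT 22 and 49.1 CPM in the library labelled WT 23 (log2 fold change 0.82, edgeR adjusted p = 0.000445, and 0.48 over the 6 libraries). Flt4 (0.99), Nrp1 (0.34) and Nrp2 (0.87) were also higher by their log2 fold changes. Flt1 did not pass (0.21, edgeR adjusted p = 0.536), nor did the ligand genes Vegfb, Vegfc, Vegfd and Pgf. Kdr and Flt4 are also genes of sinusoidal endothelial cells. The markers of these cells held 0.0258% to 0.0279% of counts in Atg5 CD11cKO libraries, against 0.0291% and 0.0302% in WT 21 and WT 22 and 0.0277% in the library labelled WT 23. Of 12 tested, 6 were higher and 3 lower, and their median log2 fold change was 0.54 (0.29 over the 6 libraries), so the summed share and the median differ in direction. The part of these cells in the Kdr and Flt4 results was not tested.

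Vegfa is a target of hypoxia signalling, and the part of hypoxia in its change was not tested. Of 18 other hypoxia-responsive genes tested, 3 were higher and 2 were lower, near the shares over all genes (15.9% and 15.1%). Their median log2 fold change was 0.06 (0.03 over the 6 libraries). P4ha1, which encodes a collagen prolyl hydroxylase subunit, was higher (log2 fold change 1.16), as was the glycolytic gene Aldoa (0.43). Vhl was also called higher, a call lost when WT 22 was also left out (log2 fold change 0.28 then). Ndrg1 and Pdk1 were lower at -0.67 and -0.73. The lactate dehydrogenase gene Ldha was at 709.5 to 745 CPM in Atg5 CD11cKO libraries, against 725 and 738 CPM in WT 21 and WT 22, a log2 fold change of 0.00 (standard error 0.03).

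Hbegf, whose membrane-bound product is shed to activate the EGF receptor, fell in Atg5 CD11cKO cells without the library labelled WT 23. It lies on chromosome 18 from 36504927 to 36515805. It was at 12.6, 13.8 and 14.3 CPM in Atg5 CD11cKO 25, 26 and 27, against 21.9 and 19.2 CPM in WT 21 and WT 22, and the library labelled WT 23, with 12.4 CPM, lay below every Atg5 CD11cKO library. The level was 0.66 times that of WT 21 and WT 22 (log2 fold change -0.60, standard error 0.14, edgeR adjusted p = 0.00594), while over all 6 libraries the log2 fold change was -0.40 (standard error 0.21, edgeR adjusted p = 0.385).

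Areg, the gene of amphiregulin, which regulatory T cells, innate lymphoid cells and mast cells are known to make, lies on chromosome 5 from 91139599 to 91148432 and was scarce. It had 29, 49 and 48 counts in Atg5 CD11cKO 25, 26 and 27, against 40 and 29 counts in WT 21 and WT 22 and 62 counts in the library labelled WT 23. The groups overlapped, and the gene did not pass (log2 fold change 0.33, standard error 0.46, edgeR adjusted p = 0.648 when the library labelled WT 23 is left out). Over all 6 libraries its log2 fold change was -0.05 (standard error 0.43, edgeR adjusted p = 0.963). Markers of innate lymphoid and regulatory T cells held 0.00146% to 0.00169% of counts in Atg5 CD11cKO libraries, against 0.00117% and 0.00185% in WT 21 and WT 22. Mast cell and basophil markers held 0.0012% to 0.00161% in Atg5 CD11cKO libraries, against 0.00254% and 0.00257% in WT 21 and WT 22, and 1 of 3 tested was lower.

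Of 6 other EGF family ligands tested without the library labelled WT 23, none was higher and 2 were lower, with a median log2 fold change of -0.88 (-0.68 over the 6 libraries). Over all genes tested, 15.9% were higher and 15.1% lower. Nrg2, which encodes a neuregulin, was at 13.3, 12.9 and 17.3 CPM in Atg5 CD11cKO 25, 26 and 27, against 29.7 and 27.2 CPM in WT 21 and WT 22 and 12.8 CPM in the library labelled WT 23 (log2 fold change -0.97, edgeR adjusted p = 0.000395, and -0.68 over the 6 libraries). Egf itself was lower with a log2 fold change of -2.38, at no more than 3.90 CPM in any library.

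Of 15 EGF family receptor, sheddase and feedback genes tested in the same comparison, 5 were higher and 3 were lower, with a median log2 fold change of 0.06 (0.01 over the 6 libraries). The shares over all genes were 15.9% and 15.1%. The sheddase genes Adam17, Adam10 and Adam9 were among the higher ones, while Adam8 and Adam12 did not pass. Adam17, the protease that cuts HB-EGF and amphiregulin, was at 212, 206 and 207 CPM in Atg5 CD11cKO 25, 26 and 27, against 109 and 107 CPM in WT 21 and WT 22 and 206 CPM in the library labelled WT 23 (log2 fold change 0.95, edgeR adjusted p = 3.74e-08, and 0.56 over the 6 libraries). Adam10, a related protease, had a log2 fold change of 0.77 (edgeR adjusted p = 6.43e-07), and Cd9, which encodes a tetraspanin that binds the HB-EGF precursor, one of 0.53 (3.69e-06). Errfi1, the gene of a feedback inhibitor of the EGF receptor, was lower at -0.71. The receptor gene Egfr was at 5.09, 5.13 and 3.46 CPM in Atg5 CD11cKO 25, 26 and 27, against 15.2 and 12.6 CPM in WT 21 and WT 22 and 3.78 CPM in the library labelled WT 23. Egfr thus fell in Atg5 CD11cKO cells (log2 fold change -1.60, edgeR adjusted p = 0.000151, and -1.21 over the 6 libraries). Hepatocytes are known to carry much of this receptor, and their markers were lower too. The part of hepatocyte RNA in the Egfr result was not tested.

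Other secreted repair factors, outside the 10 genes, were higher where they passed. Of 19 tested without the library labelled WT 23, 8 were higher and none was lower, with a median log2 fold change of 0.23 (0.34 over the 6 libraries). Over all genes tested there, 15.9% were higher and 15.1% lower. The gene of galectin-3, Lgals3 (log2 fold change 1.04), the osteopontin gene Spp1 (2.34) and Gdf15 (1.64), a stress-induced member of the TGF-β superfamily, had the smallest adjusted p-values. Inhba, Csf1 and Ccn1 were among those that missed the threshold, and their log2 fold changes were -0.20, -0.11 and -0.12. Over the 6 libraries as labelled, edgeR and limma-voom called no gene of the 10 lists, while DESeq2 called 4: Col1a1 as higher (log2 fold change 2.08) and Itgae (-0.99), Igfbp2 (-3.40) and Egf (-2.03) as lower.

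**Figure D4:**
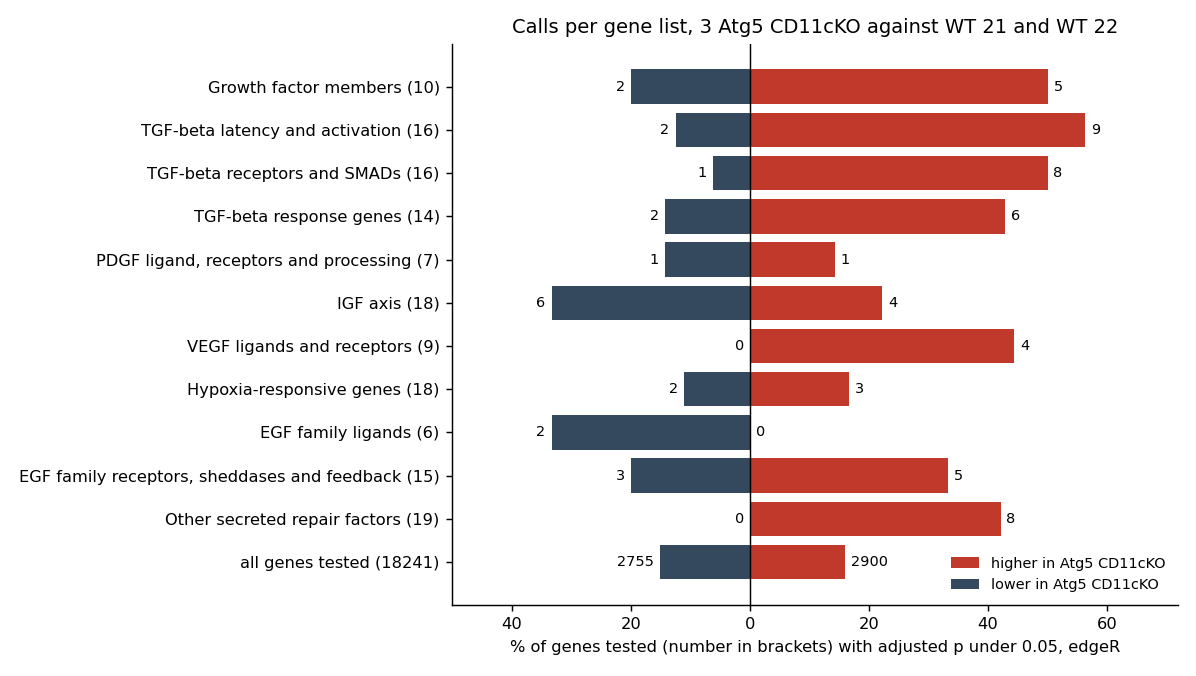
Share of the genes tested in each list (x axis, percent, number tested in brackets) that was higher (right, red) or lower (left, dark) in Atg5 CD11cKO libraries than in WT 21 and WT 22 at an adjusted p under 0.05 from edgeR, with the number of genes at the end of each bar. The bottom bar gives all 18241 genes tested, of which 15.9% were higher and 15.1% were lower, and 5 and 2 of the 10 growth factor genes were.

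The genes whose profile over the 6 libraries lay closest to that of Pdgfa, the gene that rose most, and of Tgfb3, the gene that fell most, were looked up among 10802 genes with a mean of at least 5 CPM. The measure was the root mean square difference of log2 levels, each centred on the gene's own mean. Closest to Pdgfa were Zranb3 (0.076), Fmnl3 (0.077) and Gpr183 (0.081). Gpr183, an oxysterol receptor that guides DCs, was at 170.2, 171 and 169 CPM in Atg5 CD11cKO 25, 26 and 27, against 76.1 and 63.3 CPM in WT 21 and WT 22 and 175 CPM in the library labelled WT 23. Closest to Tgfb3 were Ahcy (0.091), Rab37 (0.125) and Zc3h7b (0.128), of which Ahcy has near-identical pseudogene copies that could share its reads. A profile has only 6 points here, of which WT 21 and WT 22 are the ones that differ most.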

How the data were processed

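RNA-seq was available for 3 Atg5 CD11cKO and 3 WT libraries of hepatic CD11c+ cells, grouped by their labels. As deposited, the values are estimated counts for each gene. Per the submitters' processing notes the authors used Partek, STAR 2.5.3a and bcl2fastq 2.17.1.14 with the build mm10. For the counting step, annotation version and strand setting the sources used here give nothing. A second deposited table, of normalized values, was not used. Whole numbers made up 32.9% of the estimated counts, within 1e-06.

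Counts were rounded, filtered with filterByExpr, scaled by TMM and compared with edgeR 4.0.16 (R 4.3.3) by its quasi-likelihood test over all genes, Benjamini-Hochberg adjusted at 0.05. The standard error of each log2 value is its size over the square root of F. Alternatives were RLE factors, library totals, DESeq2 1.42.0, limma-voom (limma 3.58.1), no filter, 1 CPM in 3 libraries, and leaving out each library. The procedure was tested on simulated data. Plots used Python 3.11.15 and matplotlib 3.10.9. Coordinates and exon lengths came from GENCODE vM21 and promoters from RefSeq.

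The 10 genes, the gene lists, the comparison without the library labelled WT 23 and the alternatives were chosen with earlier results of these data known. Genes named were the 10, up to 3 called genes of each list by adjusted p, receptors of the ligands, and the 3 genes nearest in profile to the called members that rose and fell most. Others in the text (Thbs1, Mmp9, Smad2, Smad3, Smad4, Skil, Ski, Tgif1, Pmepa1, Col3a1, Col1a1, Acta2, Nrp2, Vegfb, Vegfc, Vegfd, Pgf, Vhl, Pdk1, Ldha, Errfi1, Adam8, Adam9, Adam12, Inhba, Csf1 and Ccn1) were named after their values were seen. The listed genes Epgn, Fgf7, Ptn, Fcn3 and Mcpt8 were not analysed here.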

Additional observations from a re-analysis of the deposited data

How the results depend on the processing

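Over all 6 libraries, the count of growth factor genes called higher was 0 with edgeR and 1 with DESeq2, and when each library was left out in turn it ran between 0 and 5 (higher) and between 0 and 2 (lower), with calls only when the library labelled WT 23 was the one left out. Over all genes, 0 were called as labelled, DESeq2 called 37 higher and 305 lower, and without that library 2900 were higher and 2755 lower. Of 119 alternative values for single growth factor genes in the 6 libraries, 106 kept their direction and side of the threshold, 8 came to pass it and 5 reversed, of genes that were not called: Pdgfc ran between -0.043 and 0.17 and Areg between -0.29 and 0.33 (log2 fold change) when each library was left out, and Areg was at 0.012 with limma-voom. Without the library labelled WT 23, 105 of 108 kept both. Vegfa lost its call when WT 22 or Atg5 CD11cKO 26 was left out too. Tgfb2 ran between -1.04 and 0.14 when each library but Atg5 CD11cKO 26 was left out, the sign turning without WT 22. Without Atg5 CD11cKO 26, or with the filter of 1 CPM in 3 libraries, Tgfb2 was not tested. Leaving out WT 21 or WT 22 leaves 1 WT library, which is then assumed to vary like the others. Of 66 listed pathway genes called there, 9 lost the call or were removed by the filter in at least 1 alternative. The cause of these changes was not tested. No paired analysis was possible because the groups share no replicate numbers. Depth limits Tgfb2 and Areg, which had at most 62 counts in a library.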
